A study of Rattus norvegicus with 15 samples.

Results

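Gene expression in the nucleus accumbens of rats that had self-administered cocaine was compared, over every withdrawal time and test condition at once, with that of rats that had self-administered saline. All 15 arrays of the study entered the comparison, 12 from cocaine rats and 3 from saline rats, chosen by the group named in each array's title. The rats were male Sprague-Dawley animals that pressed a lever for intravenous infusions in sessions of 6 h a day for 10 days. Group 1W was studied after 1 day of withdrawal, and group 1C after 1 day and an extinction test in which cue-induced cocaine seeking was scored. Group 30W was studied after 30 days of withdrawal, and group 30C after 30 days and the same test. Group Sal received saline in place of cocaine in sessions of the same number and length. Its labels give neither a withdrawal time nor a test, so neither can be matched to the cocaine groups. Each group had 3 arrays. Whether an array stands for 1 rat or for a pool is not in the labels, so p-values measure only the spread between these arrays.

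The nucleus accumbens is the ventral part of the striatum, built mainly of GABAergic medium spiny neurons that receive dopamine from the midbrain and glutamate from cortex, hippocampus and amygdala. Cocaine blocks the dopamine transporter and so raises extracellular dopamine there. Repeated intake is known in this tissue for induction of the transcription factor FosB, for altered opioid peptide expression and for changes in AMPA-type glutamate receptors over long withdrawal. A difference common to the 4 cocaine groups would be one present both early and late in withdrawal, with and without the cue test.

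The values are log2 intensities that the authors made with RMA, which corrects background, brings arrays to one distribution and condenses the probes for a transcript into 1 value. A difference of 1 on this scale is a doubling. Of 14497 named genes, 11778 were bright enough to test. The arrays carried the medium spiny neuron genes of the labelled tissue at high level. Penk, the enkephalin precursor, averaged 12.71 on the cocaine arrays and 12.64 on the Sal arrays, and Ppp1r1b, the dopamine-regulated phosphatase inhibitor DARPP-32, averaged 12.21 on the cocaine arrays and 12.18 on the Sal arrays. Markers of neighbouring cortex varied widely between single arrays. Slc17a7, which loads glutamate into vesicles of cortical cells, spanned 7.16 to 12.16 over all 15 arrays. A score of cortical markers lay between -0.42 and 0.65 on the cocaine arrays and was -0.90, 0.29 and 0.48 on the Sal arrays. Sal replicate 1 was thus the lowest of all 15. Each difference given here rests on these 3 Sal arrays. The 25th percentile of the arrays, a measure of their dim end, lay between 5.48 and 5.59 on cocaine arrays and between 5.51 and 5.57 on Sal arrays (two-sided exact permutation test of the means over 455 splits, p = 0.859). That pooled test does not show a split by day among the cocaine arrays. They lay between 5.48 and 5.51 after 1 day of withdrawal and between 5.53 and 5.59 after 30 days.

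No gene differed between cocaine and Sal beyond the test's threshold. In limma, with Benjamini-Hochberg adjustment over 11778 genes, 0 genes (0%) were higher and 0 (0%) lower at an adjusted p of 0.05, and the smallest adjusted p was 0.506. At an unadjusted p of 0.05, the higher genes numbered 312 (2.65%) and the lower ones 198 (1.68%). Together these 510 genes (4.33%) were fewer than the 588.9 that a level of 5% of all genes gives. The counts of genes in the other intervals of p lay between 475 and 678. The median standard error was 0.0548 on the log2 scale and the median half-width of the 95% interval 0.118. That interval holds for a single gene without adjustment, and the adjusted threshold asks for a larger difference. Dnaja4 at 0.25 and Lrg1 at 0.84, described below, did not reach it. The 4 groups taken 1 at a time gave 0 genes past the threshold as well. At an unadjusted p of 0.05 the 1W arrays had 573 genes (4.87%), the 1C arrays 404 (3.43%), the 30W arrays 895 (7.6%) and the 30C arrays 596 (5.06%). These 4 comparisons share the Sal arrays.

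The direction of a gene's difference was common to the 4 cocaine groups for 4058 genes (34.5%). Of these, 2144 genes (18.2%) were higher than Sal in all 4 groups and 1914 (16.3%) were lower. The 4 comparisons share the Sal arrays, so a gene counts whenever its Sal mean is the highest or lowest of the 5 group means. The count alone therefore measures no effect of cocaine. A stricter description asks that each of the 12 cocaine arrays lie on the same side of all 3 Sal arrays, and 42 genes (0.357%) met it. Of these, 29 (0.246%) lay above Sal and 13 (0.11%) below. Their differences were small, from 0.07 to 0.84 for the higher genes (median 0.19) and from -0.46 to -0.10 for the lower (median -0.20). The 2 sets differed in brightness. Genes with a mean level under 6.5, toward the dim end of the genes tested, made up 7 of the 29 higher genes and 9 of the 13 lower ones, and 15.8% of all genes tested. For any gene, 1 of the 455 choices of 3 arrays takes the 3 highest and 1 takes the 3 lowest. Some genes thus meet the criterion under arbitrary labels. Taken over both directions, that share of all genes tested is larger than the 42 found. The count alone therefore measures no effect of cocaine here either. None of the 42 passed the test, and they are described here because their arrays did not overlap. In some of them several cocaine arrays held the same value to the last digit. Gmip was 7.426594 on 1W replicates 1 and 2, 1C replicate 3 and 30C replicates 1 and 2. Trim72 was 6.039494 on 1W replicate 1, 1C replicate 3, 30W replicate 1 and 30C replicate 1. The evenness of such genes rests partly on repeated values, whose source was not tested. Without Sal replicate 1 the criterion was met by 170 genes above and 116 below, without Sal replicate 2 by 99 and 46, and without Sal replicate 3 by 80 and 104, since fewer arrays have to be cleared.

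Among the higher genes the smallest p belonged to Dnaja4, which encodes an Hsp40-type co-chaperone of Hsp70. Dnaja4 read 7.58, 7.60 and 7.56 in 1W, 7.42, 7.62 and 7.52 in 1C, 7.69, 7.58 and 7.70 in 30W and 7.52, 7.61 and 7.49 in 30C, against 7.28, 7.33 and 7.37 on the Sal arrays. All 12 cocaine arrays were above the highest Sal array, with the 30W group at the top. The mean was 7.58 ± 0.08 on cocaine arrays and 7.33 ± 0.05 on Sal arrays (SD, n = 12 and 3), a difference of 0.25 (1.19-fold; 95% interval 0.15 to 0.34; limma p = 8.59e-05, adjusted p = 0.506). It differed from Sal by 0.25 in 1W, 0.19 in 1C, 0.33 in 30W and 0.21 in 30C. Trim72, a membrane-repair protein best known from muscle, lay between 5.92 and 6.09 on the cocaine arrays, with a median of 6.04, and at 5.88, 5.86 and 5.89 on the Sal arrays. The groups did not overlap, although the difference was only 0.15 (limma adjusted p = 0.506).

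Lrg1, a secreted leucine-rich glycoprotein of the acute-phase response and of vessel endothelium, had the largest difference of all genes tested. Its values were 7.52, 7.34 and 7.20 in 1W, 7.31, 8.08 and 7.44 in 1C, 7.69, 7.15 and 7.88 in 30W and 7.21, 7.07 and 7.86 in 30C, against 6.18, 6.95 and 6.79 on the Sal arrays. Every cocaine array exceeded every Sal array, but the lowest of them, at 7.07, was near the highest Sal value, and values spread widely inside each group. The cocaine mean was 7.48 ± 0.33 and the Sal mean 6.64 ± 0.41 (SD, n = 12 and 3). The difference of 0.84 (1.79-fold; 95% interval 0.39 to 1.29) had a limma adjusted p of 0.642. In tissue samples such as these, more cells of a type and more RNA per cell cannot be told apart.

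The other 9 higher genes of the leading 12 had differences between 0.13 and 0.31. Wfdc1, a secreted protein with a WAP domain, was between 8.72 and 9.04 on cocaine arrays (median 8.83) and at 8.64, 8.67 and 8.54 on Sal arrays, a difference of 0.22. Gpx2, a glutathione peroxidase best known from gut epithelium, was between 6.12 and 6.41 on cocaine arrays (median 6.27) and at 6.07, 5.88 and 6.07 on Sal arrays, a difference of 0.27. Fam43a ran from 7.33 to 7.65 on cocaine arrays (median 7.47), above Sal values of 7.17, 7.24 and 7.25, and its 30C mean stood 0.40 over Sal while the other groups stood 0.19 to 0.23 over it. In none of these genes did an array of one kind cross into the range of the other. Scarf1, a scavenger receptor of endothelial cells, differed by 0.22, and Atp2a3, the SERCA3 calcium pump, by 0.16. Gipc3, a PDZ-domain protein needed for hearing, differed by 0.25, and Lrrfip1, a nucleic acid-binding repressor, by 0.14. Matn4, a matrilin of the extracellular matrix, differed by 0.13, and Papolb, a poly(A) polymerase of the testis, by 0.31 at a mean of 5.85 on cocaine arrays and 5.54 on Sal arrays, near the dim end. Adjusted p in limma ran from 0.506 to 0.720 over the 12 genes.

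**Figure D1:**
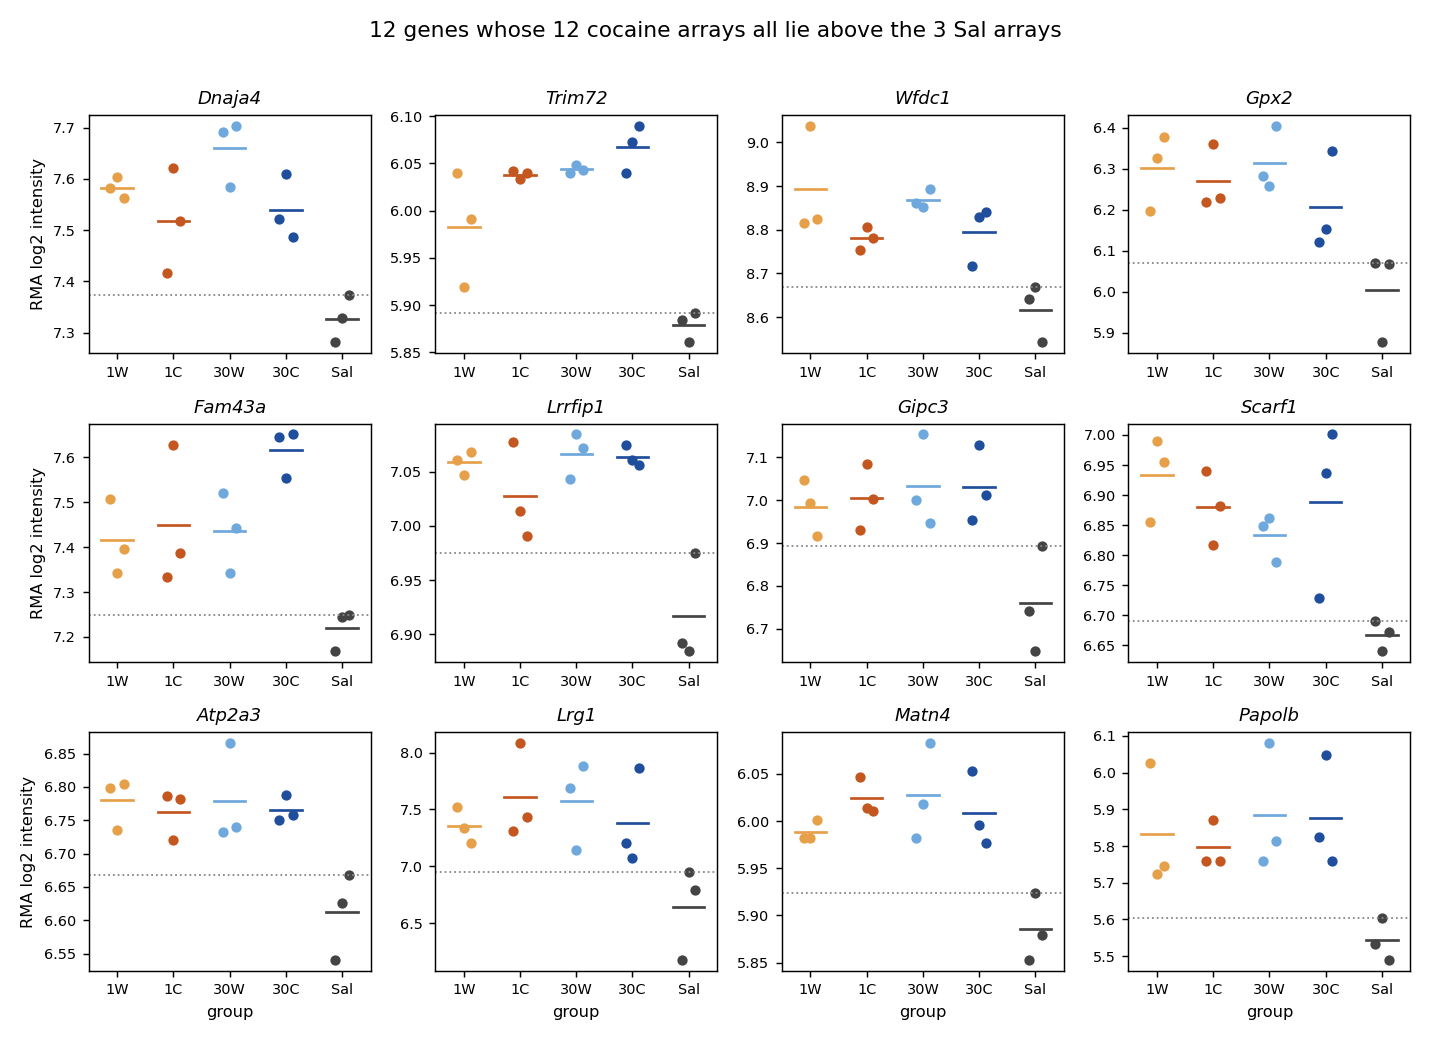
RMA log2 intensity of the 12 leading higher genes on each array (points), with group means (bars), for the 4 cocaine groups 1W, 1C, 30W and 30C and for Sal; the dotted line marks the highest Sal array and each panel has its own scale. Every cocaine point lies above the line, with a gap between the nearest arrays of 0.016 to 0.12, and none of the genes passed the test (limma adjusted p 0.506 or more).

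Below Sal, the lowest p belonged to Or8c19, a gene of the olfactory receptor family. Its values were 5.82, 5.95 and 5.96 in 1W, 6.26, 5.92 and 6.33 in 1C, 6.03, 6.15 and 6.14 in 30W and 6.03, 5.81 and 5.84 in 30C, against 6.66, 6.35 and 6.43 on the Sal arrays. The highest cocaine array, at 6.33, almost reached the lowest Sal array. The mean was 6.02 ± 0.17 on cocaine arrays and 6.48 ± 0.16 on Sal arrays (SD, n = 12 and 3), a difference of -0.46 (95% interval -0.64 to -0.28; limma p = 7.77e-05, adjusted p = 0.506). Or4z4, of the same family, was between 5.86 and 6.16 on cocaine arrays (median 6.06) and at 6.24, 6.46 and 6.23 on Sal arrays, a difference of -0.26. It was closest to Sal in 30C, at -0.17, and farthest in 1W, at -0.34. Zdhhc25, of the palmitoyltransferase family, was between 5.67 and 5.89 on cocaine arrays (median 5.82) and at 5.98, 6.03 and 5.96 on Sal arrays, a difference of -0.19.

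Of the 12 leading lower genes, 6 encode chemosensory receptors of the nose, and all 6 were dim. Of the 233 genes of these receptor families that were tested, 6 lay below Sal on all 12 arrays, against 13 of all 11778 genes (0.11%). Besides Or8c19 and Or4z4 these were Or1ad5 (-0.20), Vom1r63 (-0.25), Or11i1 (-0.28) and Olr1191, which read between 5.49 and 5.99 on cocaine arrays and 6.10, 6.03 and 6.30 on Sal arrays (-0.37). The other 6 were Zdhhc25, Mcm5, Nup37, Gmip, Sytl4 and Sfxn4. Mcm5, a subunit of the replicative helicase, lay between 5.82 and 6.11 on cocaine arrays (median 5.97) and at 6.14, 6.23 and 6.15 on Sal arrays, a difference of -0.20. Nup37, a nuclear pore protein, lay between 6.70 and 7.003 on cocaine arrays (median 6.94) and at 7.15, 7.04 and 7.14 on Sal arrays, a difference of -0.21. Gmip differed by -0.11, Sytl4, a Rab27 effector of granule exocytosis, by -0.17, and Sfxn4, a mitochondrial sideroflexin, by -0.11. For Sfxn4 the nearest cocaine and Sal arrays were 0.0011 apart, the narrowest separation of the 24 leading genes. Adjusted p in limma was between 0.506 and 0.989 for the 12 genes.

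**Figure D2:**
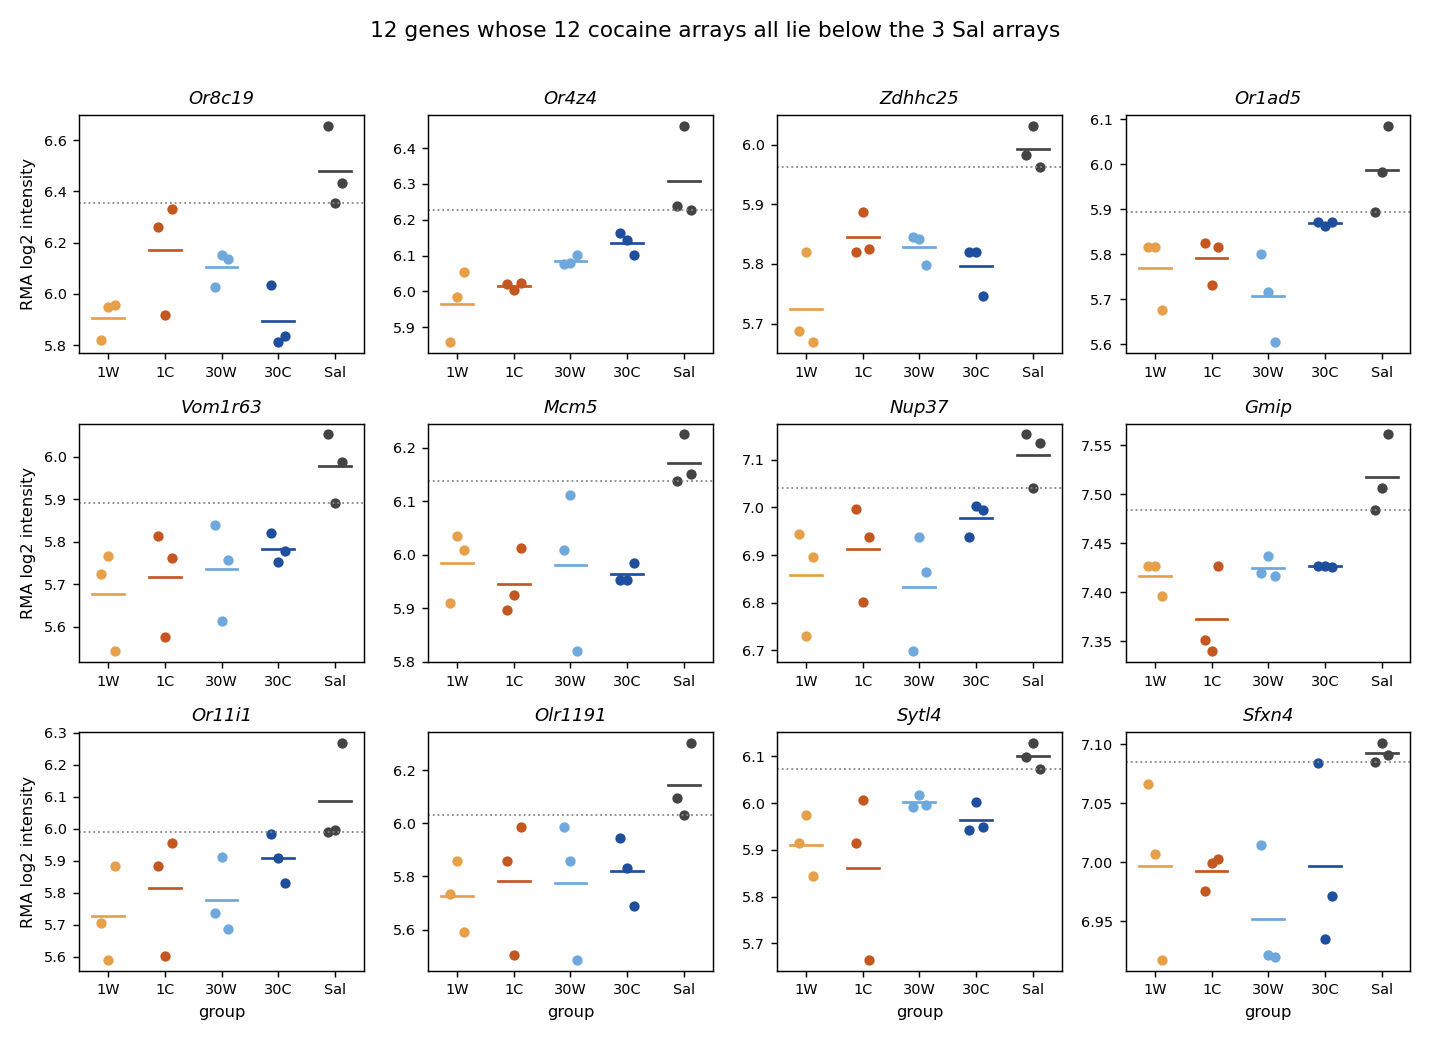
RMA log2 intensity of the 12 leading lower genes on each array (points), with group means (bars), for 1W, 1C, 30W, 30C and Sal; the dotted line marks the lowest Sal array and each panel has its own scale. Every cocaine point lies below the line, with a gap between the nearest arrays of 0.0011 to 0.075, and 6 of the 12 panels are olfactory or vomeronasal receptor genes with means under 6.5 on this scale.

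Promoters of the first 2 genes in each direction are shown because these 4 genes head the comparison. They are RefSeq sequences of build GRCr8, each of 300 bases around the start of the gene, written 5′ to 3′ on the strand of the gene. Dnaja4 lies on the plus strand (chr8:63981337-63981636), Trim72 on the plus strand (chr1:192043970-192044269), Or8c19 on the plus strand (chr8:47311757-47312056) and Or4z4 on the minus strand (chr1:218455913-218456212). Capitals mark a half-site of the cAMP response element, the site bound by the transcription factor CREB.
Dnaja4: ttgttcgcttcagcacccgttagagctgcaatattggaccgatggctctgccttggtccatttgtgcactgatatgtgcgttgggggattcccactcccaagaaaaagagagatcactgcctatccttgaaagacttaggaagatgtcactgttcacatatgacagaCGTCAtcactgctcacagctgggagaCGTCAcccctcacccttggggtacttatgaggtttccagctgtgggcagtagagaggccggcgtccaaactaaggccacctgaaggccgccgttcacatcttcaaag
Trim72: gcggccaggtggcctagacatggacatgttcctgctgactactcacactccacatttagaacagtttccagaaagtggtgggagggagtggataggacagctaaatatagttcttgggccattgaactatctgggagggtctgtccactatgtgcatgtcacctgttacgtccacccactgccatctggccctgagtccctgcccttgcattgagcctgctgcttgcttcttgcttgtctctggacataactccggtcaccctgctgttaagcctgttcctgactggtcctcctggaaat
Or8c19: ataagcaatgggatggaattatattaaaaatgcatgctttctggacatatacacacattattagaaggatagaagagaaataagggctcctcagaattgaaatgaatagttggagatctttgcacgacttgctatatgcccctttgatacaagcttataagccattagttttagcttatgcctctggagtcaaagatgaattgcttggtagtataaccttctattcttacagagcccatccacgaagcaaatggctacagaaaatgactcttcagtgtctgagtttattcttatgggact
Or4z4: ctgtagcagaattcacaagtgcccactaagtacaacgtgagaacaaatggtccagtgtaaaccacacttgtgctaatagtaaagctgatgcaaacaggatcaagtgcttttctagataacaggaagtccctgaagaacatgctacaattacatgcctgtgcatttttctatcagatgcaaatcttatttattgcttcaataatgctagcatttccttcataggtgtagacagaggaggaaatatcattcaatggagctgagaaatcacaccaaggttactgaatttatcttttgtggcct
The half-site TGACG, searched on both strands, occurred in the Dnaja4 promoter at bases 168 to 172 and 194 to 198. It was found in 21.2% of 33469 promoters of the same length, and in 3 of the 21 leading genes with a promoter in the table (Dnaja4, Gipc3 and Mcm5). The half-site overlaps the full element TGACGTCA, which was in 1.83% of promoters and in Mcm5 among the leading genes. The heat shock element GAANNTTC was in 8.59% of promoters and in Zdhhc25 and Mcm5. The AP-1 motif TGANTCA (7.33% of promoters) and the E-box CACGTG (6.42%) were in 0 of the 21. These matches are descriptions of letters in a fixed window, and the half-site was added to the search after the first motifs had been looked at.

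Differences among the cocaine groups were tested for the leading genes in the same fit, with a spread estimated over all 15 arrays. A choice of genes whose cocaine arrays all clear the Sal arrays favours genes with little spread among cocaine arrays, so these counts only describe them. Across the 4 cocaine groups the limma F test gave 1 of the 24 genes at an unadjusted p of 0.05 (Or8c19, limma adjusted p = 0.612), where all genes tested had 8.08%. Between 30 days and 1 day of withdrawal it was also 1 of 24, Or4z4 (limma adjusted p = 0.306), where all genes had 13%, and 0.00849% past the adjusted threshold. Between rats with and without the extinction test it was Dnaja4 (limma adjusted p = 0.999), where all genes had 4.85%. The interaction of time and test gave Or8c19 and Zdhhc25, where all genes had 3.03%. The smallest shift of any 1 group from Sal was between 0.10 and 0.71 for the higher genes and between 0.09 and 0.32 for the lower ones.

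A separate reading by size asked for at least a 1.2-fold shift the same way in all 4 groups, and 10 genes met it, named here after their values were seen. Higher were 4 (0.034% of genes tested), namely Lrg1, Slc17a7, Slco2a1 and Tgm2. Slc17a7, the cortical transporter described above, averaged 10.87 on cocaine arrays and 10.24 on Sal arrays, but its standard error of 0.81 exceeded its difference of 0.63. Slco2a1, a prostaglandin transporter, averaged 6.03 on cocaine arrays and 5.54 on Sal arrays and lay above Sal on all 12, with a difference of 0.49 (limma adjusted p = 0.989). The highest of these 12, 1C replicate 2 at 6.96, stood far over their median of 5.94. Tgm2, a transglutaminase, averaged 7.83 on cocaine arrays and 7.48 on Sal arrays, with overlap. Lower were 6 (0.0509%), of which Or8c19, Olr1191 and Or1j16b are olfactory receptor genes. Gh1, growth hormone, averaged 6.06 on cocaine arrays and 6.43 on Sal arrays, and Kng2l1, of the kininogen family, averaged 5.23 on cocaine arrays and 5.80 on Sal arrays. The sixth was the unnamed locus LOC108353138, at 7.79 on cocaine arrays and 8.17 on Sal arrays. Of the 10, Lrg1 and Slco2a1 above Sal (0.017% of genes tested) and Or8c19 and Olr1191 below (0.017%) also had arrays that did not overlap.

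The other 17 higher genes without overlap, of which some are named here after their values were seen, had differences between 0.07 and 0.49. Pde11a, a phosphodiesterase that breaks down cAMP and cGMP, lay between 7.23 and 7.78 on cocaine arrays (median 7.39) and at 7.18, 7.11 and 7.10 on Sal arrays, a difference of 0.28. Pim1, a serine/threonine kinase, lay between 8.54 and 8.95 on cocaine arrays (median 8.67) and at 8.53, 8.42 and 8.38 on Sal arrays, a difference of 0.25. Their limma adjusted p values were 0.720 and 0.735. Abcc4, an exporter of cyclic nucleotides and organic anions, differed by 0.14, Vasp, an actin regulator, by 0.16, and Rab13, a small GTPase of cell junctions, by 0.15. Amd1, an enzyme of polyamine synthesis, differed by 0.09 and Sdc1, a cell-surface proteoglycan, by 0.18.

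None of the genes of known interest in cocaine research passed the test. Over 15 such genes the difference lay between -0.08 (Cdk5) and 0.17 (Esr1), 12 were positive and 5 had one sign in all 4 groups. All 15 intervals stayed within 1.5-fold in either direction. Fosb had no probe set under its name and was not analysed here. Gria1 and Gria2, subunits of the AMPA receptor, differed by 0.01 (95% interval -0.09 to 0.10) and -0.01 (-0.09 to 0.07), and neither interval reached beyond 0.10 in either direction. Their signs turned under further normalization, Gria1 being -0.0079 after median centring and Gria2 0.000397 after quantile normalization. The dopamine receptors Drd1 and Drd2 differed by 0.06 and 0.08. The opioid precursors Pdyn and Penk differed by 0.13 and 0.07, and the growth factor Bdnf by -0.02. Cdk5, a kinase of dopamine signalling, ran from 9.96 to 10.25 on cocaine arrays (median 10.14) and was 10.19, 10.24 and 10.22 on Sal arrays, with overlap.

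Esr1, the estrogen receptor, had the smallest p of these genes. It lay between 6.04 and 6.34 on cocaine arrays (median 6.18) and at 6.24, 6.08 and 5.75 on Sal arrays, a difference of 0.17 with 95% interval -0.01 to 0.34 (limma adjusted p = 1.00). Its spread was larger on the Sal arrays than on the cocaine arrays, and the groups overlapped. Arc, an immediate early gene of synaptic plasticity, varied more. It read 9.07, 9.51 and 9.17 in 1W, 9.17, 9.63 and 9.77 in 1C, 9.83, 9.15 and 9.69 in 30W and 10.52, 10.07 and 9.90 in 30C, against 8.92, 9.63 and 10.00 on the Sal arrays. The Sal arrays alone spanned more than a log2 unit, and the pooled difference of 0.11 had an interval of -0.34 to 0.55. Fos, its companion gene in the response to activity, was 0.50 above Sal in 30C and -0.33 in 1W, for a pooled difference of 0.06. For these activity genes the pooled value averages groups that stood on opposite sides of Sal.

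**Figure D3:**
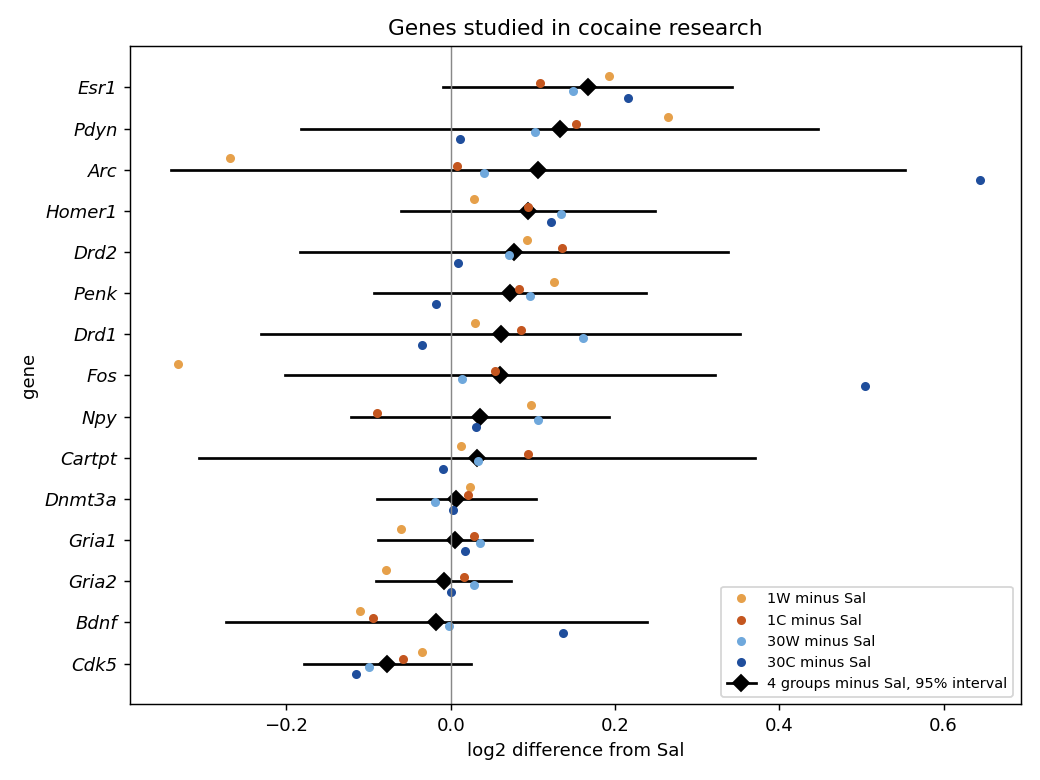
Log2 difference from Sal of 15 genes studied in cocaine research: coloured points are the 4 cocaine groups (1W, 1C, 30W, 30C) and the black diamond is their mean with its 95% interval from limma. Every interval includes 0, and Arc and Fos show the widest scatter of the group points, from -0.33 (Fos in 1W) to 0.64 (Arc in 30C).

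Genes of 31 lists were then read by their counts and medians, beside the background of all genes tested (2.65% higher and 1.68% lower at an unadjusted p of 0.05, median difference 0.00097, 50.7% of genes with a positive difference). In none of the lists did a member pass the adjusted test. Many lists had mostly positive differences, such as 25 of 26 astrocyte, 29 of 32 medium spiny neuron and 21 of 23 meningeal markers. Others did not, such as 14 of 31 oligodendrocyte markers and 19 of 54 histone enzymes. A high positive share therefore sets no single list apart. Without Sal replicate 3 the astrocyte and medium spiny neuron medians were -0.0067 and -0.013. Glucocorticoid-responsive genes had 5 of 30 measured members higher and 0 lower at an unadjusted p of 0.05, 24 of 30 with a positive difference, and the highest median of the 31 lists, 0.11. Map3k6, a stress-activated kinase, lay between 6.15 and 6.69 on cocaine arrays (median 6.31) and at 6.08, 6.13 and 6.15 on Sal arrays, without overlap, a difference of 0.23 (limma adjusted p = 0.893). Cdkn1a, the cell-cycle inhibitor p21, differed by 0.34, but by 0.72 in 30C and 0.10 in 1W. Cebpb and Cebpd, transcription factors of the acute response, differed by 0.16 and 0.15, and Errfi1, an inhibitor of epidermal growth factor receptors, by 0.09. The median deviation of the list was between -0.07 and 0.24 on cocaine arrays and -0.09, -0.07 and -0.08 on Sal arrays, and 1C replicate 2 was the high one. That array was also the highest of all 15 for Lrg1, Map3k6, Pim1 and Slco2a1. Without it the list median was 0.09, and Lrg1 differed by 0.78 (limma adjusted p = 0.663). Without Sal replicate 3 the median of the list was 0.07. The count of 5 members was 1 without Sal replicate 1, 8 without 30W replicate 1 and 2 without the 30C arrays.

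Immediate early genes, which neurons switch on within minutes of activity, had 4 of 47 members higher and 0 lower at an unadjusted p of 0.05 and a median of 0.09. Klf2 read 7.24, 7.25 and 7.23 in 1W, 7.28, 7.34 and 7.25 in 1C, 7.12, 7.25 and 7.29 in 30W and 7.51, 7.36 and 7.59 in 30C, against 7.16, 7.13 and 7.02 on the Sal arrays. Of the cocaine arrays, 1 fell inside the Sal range, and the 30C arrays were the highest. Klf2, a transcription factor also of endothelial cells, thus differed by 0.21 (limma adjusted p = 0.610). Fosl1, a Fos-family transcription factor, and Gadd45b, a stress-response gene, each differed by 0.14, and Atf3, a stress-induced transcription factor, by 0.19. The medians of the list by group were -0.02 in 1W, 0.05 in 1C, -0.00 in 30W and 0.29 in 30C. On single arrays it was highest in 30C replicate 1 (0.39) and lowest in Sal replicate 1 (-0.20). Of the 15 arrays, 30C replicate 1 had the highest cortical score (0.65) and the lowest medium spiny neuron score (-0.38), and Sal replicate 1 the lowest cortical score (-0.90). Without Sal replicate 1 the list median was -0.03, and with the cortical score as a covariate it was 0.07. The count of 4 members was 2 without Sal replicate 1 or the 30C arrays and 8 without the 1W arrays.

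Chaperone genes had 2 of 38 members higher at an unadjusted p of 0.05, Dnaja4 and Hspb1, 0 lower, and 32 of 38 positive, at a median of 0.03. The count was 6 without Sal replicate 1, and 1 without Sal replicate 2, Sal replicate 3 or the 30C arrays. Hspb1, a small heat shock protein, differed by 0.61 in 30C, 0.31 in 1C and 0.29 in 30W but by 0.06 in 1W, and its Sal arrays at 8.38, 7.75 and 8.03 overlapped with the cocaine range of 8.01 to 8.83. Of the extracellular matrix genes, 5 of 37 were higher (0 lower; unadjusted p of 0.05), with a median of 0.02. The count was 2 without Sal replicate 3 and 3 without Sal replicate 2 or 30C replicate 3, and the median was 0.0082 without the 1C arrays. These were the basement membrane genes Nid2 (0.20) and Col4a1 (0.13), the matrix glycoprotein Fn1 (0.21), the membrane metalloproteinase Mmp14 (0.17) and the tissue plasminogen activator Plat (0.16). Nid2 lay between 6.98 and 7.26 on cocaine arrays and at 6.93, 6.95 and 6.74 on Sal arrays, and Mmp14 likewise cleared the Sal arrays. Fn1 and Plat stood higher in 1C and 30C, the groups with an extinction test (0.33 and 0.25 for Fn1, 0.31 and 0.31 for Plat) than in 1W and 30W (0.10 and 0.17 for Fn1, 0.01 and 0.00 for Plat). The contrast of these groups called 0 genes in limma, and 571 (4.85%) at an unadjusted p of 0.05.

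Blood and vessel markers are given because RNA of these cells enters any block of brain. Of 11 blood cell markers, 3 were higher at an unadjusted p of 0.05, with a list median of 0.05. The count was 0 without Sal replicate 1, which had the lowest blood score of the 15 arrays (-0.13), and the list median was then 0.03. It was 0 as well without the 1W or the 1C arrays, and 1 without 1W replicate 3, 30W replicate 1 or 3, 30C replicate 2 or 3, or Sal replicate 3. Alas2, the first enzyme of heme synthesis in red cells, read 7.45, 7.39 and 7.64 in 1W, 7.64, 7.49 and 7.44 in 1C, 7.13, 6.92 and 7.34 in 30W and 6.91, 7.04 and 7.26 in 30C, against 6.97, 7.24 and 7.01 on the Sal arrays. All 6 arrays taken after 1 day of withdrawal were above the Sal arrays, against 2 of the 6 taken after 30 days, and the pooled difference of 0.23 averages over both. Hbb, a beta globin, stood 0.45 above Sal in 1W, 0.52 in 1C, -0.02 in 30W and 0.13 in 30C. Slc4a1, the red-cell anion exchanger, differed by 0.18 over the 4 groups. Endothelial and mural markers had 2 of 36 members higher at an unadjusted p of 0.05, Esam, an adhesion molecule of endothelium (0.21), and Kcnj8, a channel of pericytes (0.20), at a list median of 0.04. The count was 4 without 30C replicate 1 or all 30C arrays and 1 without Sal replicate 3. The endothelial score lay between -0.14 and 0.11 on cocaine arrays and at -0.04, 0.02 and -0.08 on Sal arrays. The part of blood or vessel RNA in Lrg1, Scarf1 or Nid2 was not tested.

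In the remaining lists 0 to 3 members were past an unadjusted p of 0.05. Tmsb10 and Tmsb4x, thymosins that bind monomeric actin, differed by 0.19 and 0.18, and with Arpc1b made 3 of 46 actin and spine genes, a count that was 0 without Sal replicate 2 and 1 without the 30W arrays. Rpl13, a protein of the large ribosomal subunit, lay between 10.48 and 10.97 on cocaine arrays (median 10.78) and at 10.49, 10.56 and 10.48 on Sal arrays, a difference of 0.27 (limma adjusted p = 0.807) beside a median of 0.01 over 67 ribosomal protein genes. Psmb8, an immunoproteasome subunit, and RT1-DMa, which loads class II molecules, made 2 of 30 antigen presentation genes, Oasl2 was 1 of 40 interferon and inflammatory genes, and Lgals3 was 1 of 36 microglial markers, at 0.44 in 1C and 0.02 to 0.13 in the other groups. The interferon and inflammatory list had a median of 0.08, with 30 of 40 positive. Its highest array was 1C replicate 2 (0.31), and without that array the list median was 0.05. Among genes of transmission, Drd4 was 1 of 35 dopamine and cAMP genes and Grin3b, an NMDA receptor subunit, 1 of 44 glutamate genes. Krt12 was 1 of 19 cortical neuron markers, Matn4 1 of 14 oligodendrocyte precursor markers, Sostdc1 1 of 18 choroid plexus markers, Gadd45b 1 of 18 DNA methylation genes, Ndufa6 1 of 68 genes of oxidative phosphorylation and Lif 1 of 44 growth factor genes. Each of these was higher, and of 23 meningeal markers Mgp was higher and Igfbp5 lower. The lists of 48 genes linked to chronic cocaine, 19 GABA genes, 45 neuropeptide genes, 54 histone enzymes, 59 potassium channels, 25 serotonin and endocannabinoid genes, 19 interneuron markers and 19 clock genes had 0 members past it in either direction. The 32 medium spiny neuron markers, the 26 astrocyte markers and the 31 oligodendrocyte markers also had 0, and their medians were 0.04, 0.04 and -0.00.

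**Figure D4:**
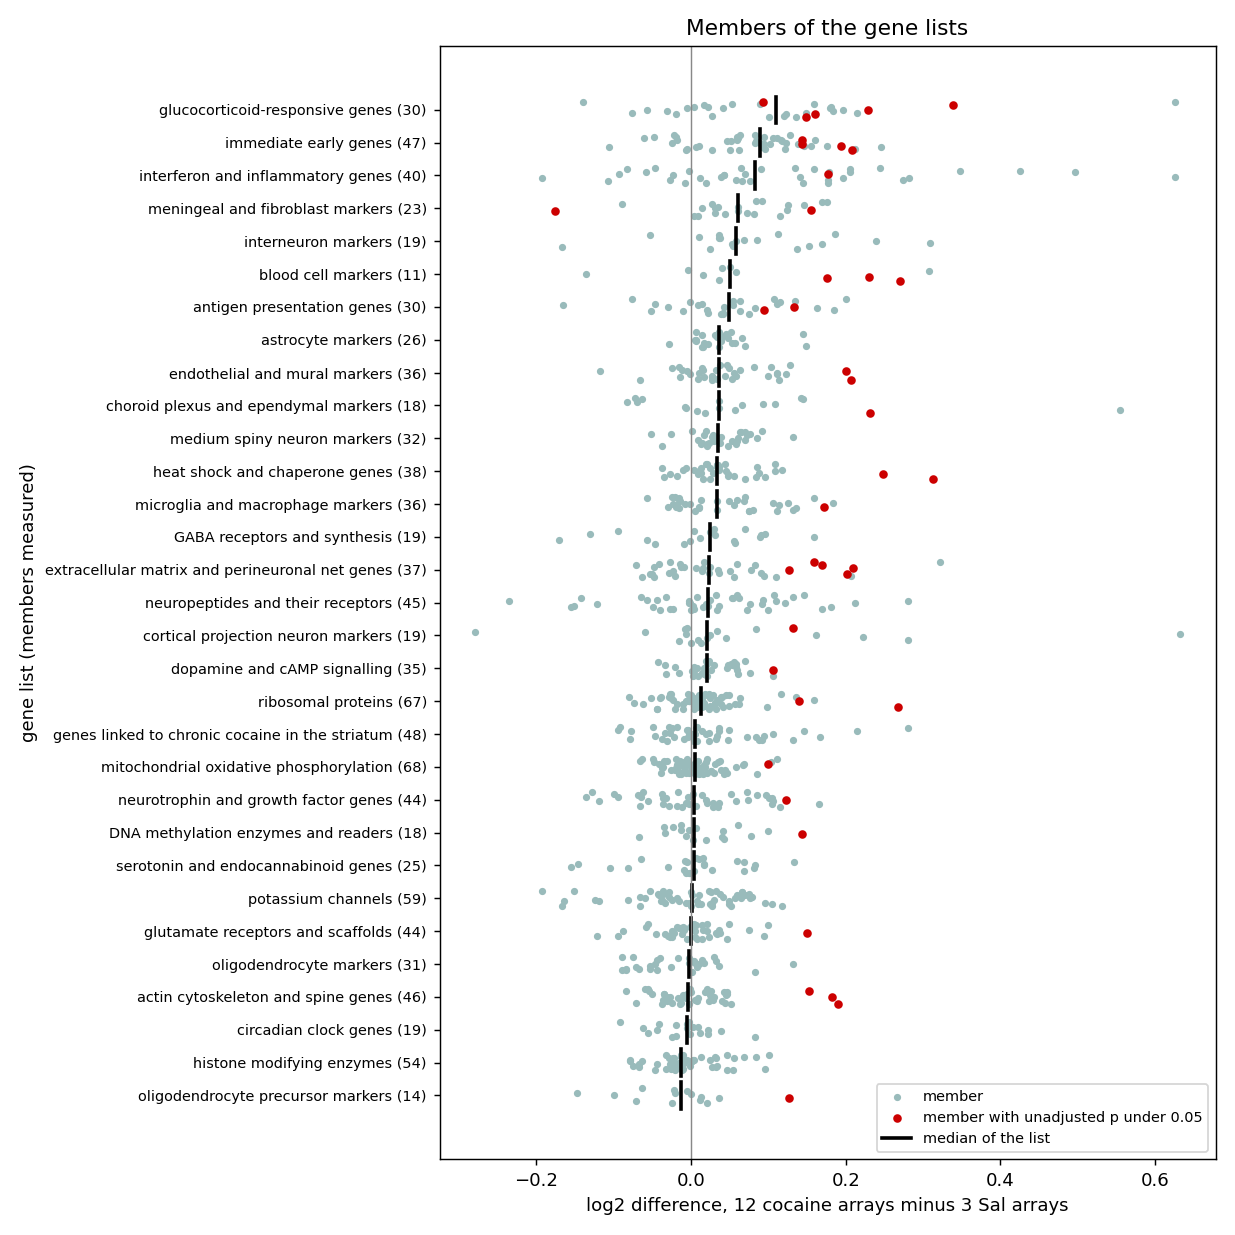
Log2 difference, 12 cocaine arrays minus 3 Sal arrays, of the measured members of 31 gene lists (points; red at an unadjusted limma p under 0.05), with each list's median as a black bar. Medians lie between -0.01 and 0.11, and the red points of all lists but one fall right of 0, the exception being Igfbp5 (-0.18) among the meningeal markers.

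Olfactory and vomeronasal receptor genes were gathered after the values had been seen, so they are described without a test. They detect odours and pheromones in the nose, and 233 of them were bright enough to test here, at a median level of 6.09 against 8.18 for all genes. Of the 233, 204 had a negative difference, 135 were lower than Sal in all 4 groups, and 68 (29.2%) were lower and 1 higher at an unadjusted p of 0.05, so that they supplied 68 of the 198 lower genes. Their median difference was -0.10. Other genes of the same range of level, between 5.74 and 6.93, were 2616 in number, with a median of 0.02, 48 lower (1.83%) and 153 higher. By group the receptor median was -0.16 in 1W, -0.13 in 1C, -0.07 in 30W and -0.04 in 30C.

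For the receptor genes 1 Sal array stood apart. The median deviation of the receptor genes was -0.12, -0.04 and -0.06 in 1W, -0.02, -0.08 and -0.01 in 1C, 0.01, 0.02 and -0.04 in 30W and 0.02, 0.07 and -0.00 in 30C, against 0.05, 0.00 and 0.18 on the Sal arrays. Sal replicate 3 was the highest of the 15, and the other 2 Sal arrays fell inside the range of the cocaine arrays. Without Sal replicate 3 the median difference was -0.06, with 28 genes lower and 1 higher at an unadjusted p of 0.05. Across 26 settings, single arrays and groups left out included, the median stayed between -0.14 and -0.06. The other dim genes moved by at most 0.05 on any array. Sal replicate 3 also had the lowest interneuron score (-0.24) and the lowest astrocyte score (-0.15) of the 15 arrays. The 25th percentile was 5.57 on Sal replicate 3, against 5.52 and 5.51 on Sal replicates 1 and 2. After 1 day of withdrawal that percentile lay between 5.48 and 5.51, and every receptor median deviation was below 0. After 30 days it lay between 5.53 and 5.59, and all deviations but those of 30W replicate 3 and 30C replicate 3 were above 0. The part of array quality or of the dim end in the receptor values was not tested.

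**Figure D5:**
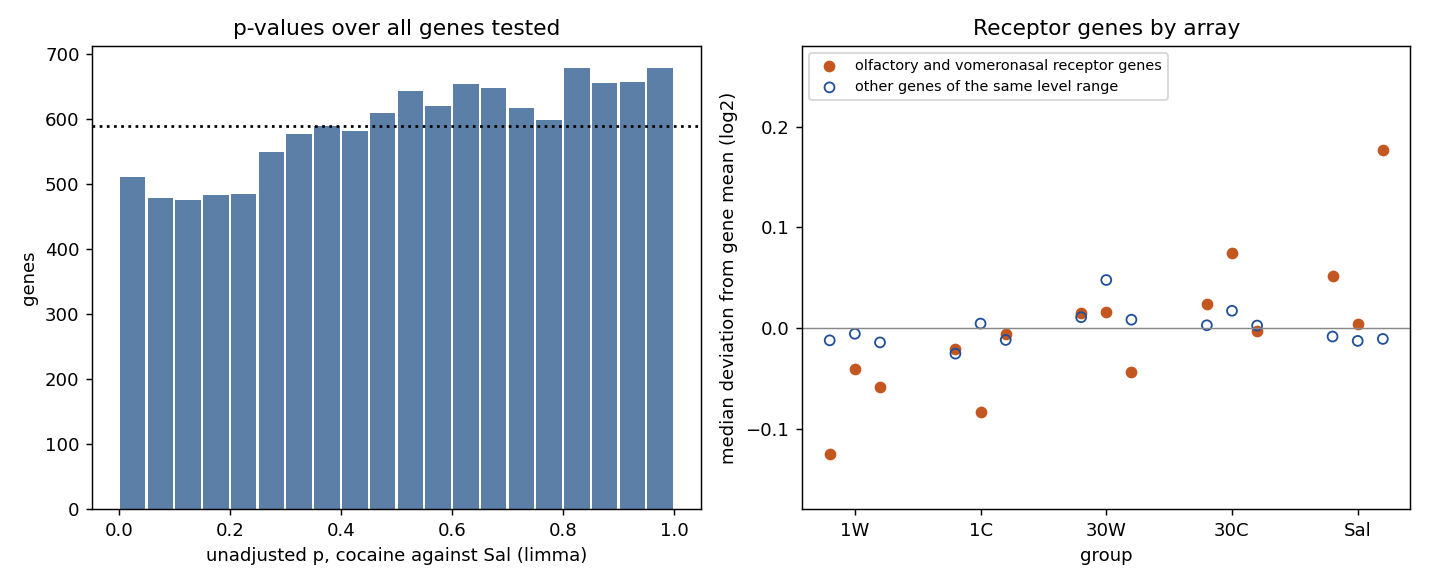
Left, the number of genes in each of 20 intervals of unadjusted limma p for cocaine against Sal, with the mean of 588.9 per interval dotted; the first interval holds 510. Right, the median deviation from the gene mean (log2) of 233 olfactory and vomeronasal receptor genes (filled) and of 2616 other genes of like level (open) on each array, with Sal replicate 3 highest at 0.18.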

How the data were processed

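Total RNA of the nucleus accumbens was hybridised to Affymetrix rat arrays. The authors' deposited values are on a log2 scale and come from RMA (version not given in the sources used here), according to the submitters' processing notes. RMA brings the probe intensities of arrays to one distribution before condensing them, so a true shift of all genes together could not be told. The condensed values still differed somewhat between arrays. Array medians lay between 6.89 and 6.97 on cocaine arrays and between 6.90 and 6.91 on Sal arrays. Per the labels' protocols the labelling kit was one for 3' arrays, while the identifiers belong to a whole-transcript array; how this bears on the values was not tested. Depth has no meaning for arrays, and 3 arrays per group limit the precision.

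There were 28826 probe sets and 0 missing values. The platform annotation gave 1 symbol to 15209 of them, several to 306 and none used here to 13311, and 15178 were matched by gene ID to RefSeq symbols (GRCr8). Each of 14497 genes was represented by its brightest probe set and kept where 3 or more arrays had it above their 30th percentile (11778 genes). A linear model with 5 groups took in the 15 arrays (R 4.3.3, limma 3.58.1, functions lmFit and eBayes; residual degrees of freedom 10, prior 3.44). The contrast was the mean of 1W, 1C, 30W and 30C minus Sal, each group weighted alike, two-sided, with Benjamini-Hochberg adjustment and a threshold of 0.05. The fit was tested on simulated data.

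Named genes were, in each direction, up to 12 whose cocaine arrays all lay on one side of the Sal arrays in order of p, since none passed the threshold, up to 2 members per list with the smallest p, and 16 genes of known interest (15 measured). The genes, lists and tests were chosen with earlier results of these data known. List members were counted and their medians taken, with no test of a list. Replicate numbers were not taken as pairs in the main fit. Over 30 pairs of like-numbered arrays of different groups, deviations from group means correlated between -0.63 and 0.51, with 10 pairs over 0.1. Over 60 pairs of unlike-numbered arrays they correlated between -0.51 and 0.60, with 21 over 0.1. The medians were -0.0096 and -0.0070. Alternatives covered the model, a cortical covariate, filters, probe sets, normalization, variance, array weights, a replicate block, thresholds, and each array or cocaine group left out. No batch or scan time was given. Scanner files were not used here.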

Additional observations from a re-analysis of the deposited data

How the results depend on the processing

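The counts of genes higher and lower in cocaine at the adjusted threshold were 0 and 0 under every alternative run, the replicate block included, and the block changed no call (0 genes). Of 3071 values of 97 named genes under 32 alternatives, 3033 kept their sign and 38, in 12 genes, did not, and 0 passed the threshold; the lowest adjusted p was 0.0837 (Or8c19 without the 1C arrays). Genes whose cocaine arrays all lay above Sal were 19 with the filter at the 50th percentile, 95 over all probe sets, and 57, 63, 46 and 50 without the 1W, 1C, 30W and 30C arrays; those below were 3, 94, and 38, 35, 26 and 41, with 38 without a filter, 33 after further quantile normalization and 22 after median centring. Leaving out 1 array gave 29 to 170 above and 14 to 116 below; below, each Sal array and 1W replicate 1, 1C replicate 3, 30C replicate 1 and 30C replicate 2 moved the count by over 1.5 times (46 to 116 and 20 to 27). Over all 28826 probe sets, 5587 were higher and 5375 lower in all 4 groups. Genes higher in all 4 groups were 1414 after centring. Without the 1W arrays, 2920 genes were lower in all remaining cocaine groups. Leaving out 1 array gave 1850 to 3019 higher and 1562 to 2906 lower. Genes differing among cocaine groups were 1 with the cortical covariate, 2 after centring, with trended robust variance, at an adjusted p of 0.10 or without the 1C arrays, and 0 to 2 leaving out 1 array; 30W against Sal gave 2 over all probe sets, and 1C against Sal 1 without the 30C arrays and 0 to 1 leaving out 1 array. At an unadjusted p of 0.05, counts were 376 and 308 with the cortical covariate and 490 and 556 with array weights, and without Sal replicate 1 they were 469 and 315. Signs turned for Gria1 (-0.0079 after centring, -0.015 with array weights, -0.0027 without 1C, -0.0049 without 30W), Gria2 (0.000397 after quantile normalization, 0.015 without 1W), Dnmt3a (-0.0060 after centring), Cartpt (-0.021) and Npy (-0.060) with array weights, Bdnf (0.013 without 1W, 0.0080 without 1C), Spon1 (0.0084 without 30W), and Arc (-0.073) and Fos (-0.088) without 30C. Leaving out 1 array gave Arc -0.19 to 0.35, Bdnf -0.182 to 0.0709, Cartpt -0.0320 to 0.161, Dnmt3a -0.0143 to 0.0326, Drd1 -0.0363 to 0.141, Fos -0.00137 to 0.165, Gad1 -0.0104 to 0.137, Gria1 -0.0174 to 0.0370, Gria2 -0.0394 to 0.0200, Homer1 -0.00272 to 0.147, Npy -0.0780 to 0.142 and Spon1 -0.106 to 0.00807. The cause was not tested, except that fewer arrays or groups change what has to be cleared. A different number of genes or probe sets also changes how many can be counted. With 3 Sal arrays, the median half-width of the unadjusted 95% interval was 0.118, and the adjusted threshold asks for larger differences than that. The 0 calls therefore do not exclude differences above 0.118.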
